A study of Mus musculus with 4 samples.

Results

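A set of 10 mouse genes for enzymes that build cell surface glycans, most of them acting at the outer ends, was followed in intestinal epithelium. They were the fucosyltransferase genes Fut1, Fut2, Fut4 and Fut8, the sialyltransferase genes St3gal4, St3gal6, St6gal1 and St6galnac6, and the chain enzymes B4galnt2 and B3gnt7. The members were taken as every probe set whose platform annotation gives one of these symbols alone, and all 10 were found, among 18193 genes, with 22 of 45037 probe sets. Epithelial cells had been cut by laser from frozen 10 µm sections of ileum and proximal colon, taken from C57/Bl6 mice, which were either wild type controls or germ-free, that is, raised without microbes. The 4 groups were thus colon and ileum of wild type and of germ-free mice. Every group was 1 array, hybridised with RNA of about 16000 cells pooled from 4 mice and amplified in 2 rounds. The labels give hematoxylin staining for the germ-free groups alone and no age for any group. With 1 array per group no difference had a replicate check and no test was possible, so the spread between mice is unknown. Values below are quantile-normalized intensities of the brightest probe set of a gene. The floor, under which a value has no order, was the median of all values, an intensity of 62.4. A fold against a value under the floor is given as "at least".

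The sugars fucose and sialic acid close the branches of glycans on mucins, membrane proteins and lipids of the gut lining, where microbes, toxins and lectins meet them. Fut1 and Fut2 attach fucose to the terminal galactose and make the H antigen, and in the small intestine the fucosylated surface is known to depend on microbes, with Fut2 as the enzyme and interleukin 22 as a signal. Sialyltransferases draw on CMP-sialic acid and differ in the linkage they make and in the chain they accept.

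Regional markers differed in how far they separated colon from ileum, and only some did so clearly in both states. The colonic carbonic anhydrase gene Car1 read 14384 and 12438 on the colon arrays (wild type, then germ-free) and 64.7 and 32.5 on the ileal arrays. The ileal bile acid binding protein gene Fabp6 was bright in ileum, at 16920 and 18190, and read 767 on the wild type and 6008 on the germ-free colon array. The other colonic marker, the water channel gene Aqp8, went against the labels in germ-free mice, at 76.4 in colon and 130.5 in ileum, where wild type read 545 and 81.3. The ileal bile acid transporter gene Slc10a2 read 261 and 618 in wild type colon and ileum and differed little between the germ-free regions, at 424 and 510. Fabp2, also listed as ileal, was bright everywhere, at 13235 and 14524 in colon and 15065 and 15191 in ileum (wild type, then germ-free). All 7 epithelial markers were above the floor on all 4 arrays. The ratio of 5' to 3' signal of the Gapdh and Actb controls was read from the values as deposited. Relative to wild type, the log2 shift of Gapdh was -0.48 in germ-free colon and -1.10 in germ-free ileum, and that of Actb -0.12 and -1.20. For ileum against colon, the log2 difference of that ratio was 0.64 (Gapdh) and 1.46 (Actb) in wild type. Between the germ-free regions it was 0.01 and 0.38. The part of RNA quality in the regional differences was not tested. The median log2 signal of the 18S ribosomal RNA probe sets fell from 12.01 to 10.65 in colon and from 12.39 to 11.78 in ileum, differences of -1.36 and -0.61, while the median of the differences of single probe sets was -1.23 and -0.93. RNA quality and the germ-free state therefore cannot be told apart in these pools. For germ-free against wild type, the SD between the brightest pair of probe sets of a gene, a measure of technical error only, was 0.26 log2 (colon) and 0.20 (ileum). For ileum against colon it was 0.25 in wild type and 0.28 in germ-free mice. This SD was taken over probe sets above the 75th percentile of all values (258.6) on both arrays, so it does not cover dimmer signals. Probe sets of a gene share the same amplified RNA and array, so errors of those steps are not in it.

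The region of the gut separated these enzymes more than the germ-free state did, and the same held over all genes. Of all measured genes 12.0% (wild type) and 13.2% (germ-free) were past 2-fold between regions. With the germ-free state 4.52% were in colon and 0.928% in ileum. St6galnac6, St6gal1 and Fut2 were colonic and St3gal4 was ileal on the wild type and the germ-free arrays alike, while B4galnt2 was bright on all 4. Fut2 was measured through the colon alone. Between germ-free and wild type, 1 enzyme was past 2-fold in each region: St3gal6 in colon, by 1 of its probe sets only, and St3gal4 in ileum. Fut1 and B3gnt7 were under the floor throughout.

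**Figure D1:**
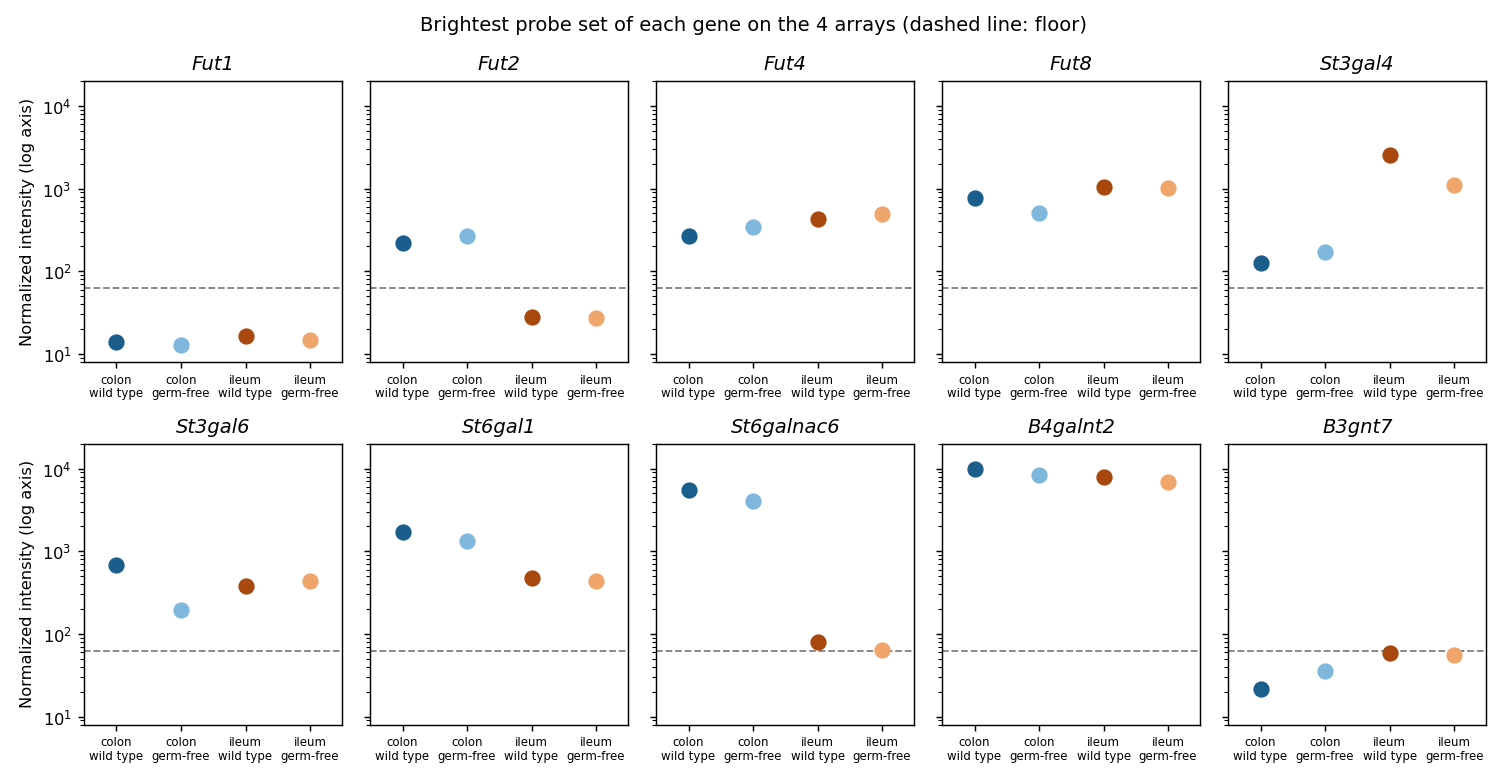
Normalized intensity (log axis) of the brightest probe set of each of the 10 genes on the 4 arrays, 1 point per array, with the floor of 62.4 as a dashed line; heights can be compared within a panel, not between genes. St6galnac6 and Fut2 stand high on both colon arrays, St3gal4 on both ileal arrays, and Fut1 and B3gnt7 lie below the line everywhere.

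Among the fucosyltransferases, Fut2, the enzyme behind secretor status, was above the floor in colon alone. It read 221 in wild type and 265 in germ-free colon, against 28.2 and 27.5 in wild type and germ-free ileum. Both colon arrays thus lay above both ileal arrays, and no ileal signal above the floor was seen with or without microbes. Fut2 was at least 3.53-fold lower in ileum than colon in wild type and at least 4.24-fold lower in germ-free mice. In colon the germ-free array was 1.20-fold higher, a log2 difference of 0.26, about as large as the 0.26 SD between brighter probe sets. That difference was 0.49 in the values as deposited and 0.52 with median scaling, larger than the SD, so its size depends on the scaling. A difference between the ileal arrays was not detectable at this signal. The other Fut2 probe set stayed between 1.10 and 6.16, far under the floor.

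Fut1, which makes the same linkage in other tissues, was represented by 1 probe set and read between 12.7 and 16.2 on the 4 arrays, so no level or difference is available for it. Fut4, which adds fucose in the α1,3 linkage of Lewis x, read 267 and 339 in colon (wild type, then germ-free) and 434 and 492 in ileum. Both ileal arrays were above both colon arrays. The ileal excess was 1.63-fold in wild type and 1.45-fold in germ-free mice, and germ-free exceeded wild type by 1.27-fold in colon and 1.13-fold in ileum. With median scaling the colonic log2 difference was 0.62, against 0.35, and in the values as deposited the germ-free regional one was 0.24, against 0.53. None of these values reached 2-fold, and the other Fut4 probe set was under the floor on all 4 arrays.

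Fut8 adds the core fucose at the base of N-glycans and is the only enzyme of its kind in mammals. Its brightest probe set read 761 and 506 in colon (wild type, then germ-free) and 1051 and 1008 in ileum. The germ-free colon array was the lowest, a log2 difference of -0.59 from wild type, and in ileum the states differed by 1.04-fold. The colonic difference was -0.38 in the values as deposited and -0.35 with median scaling. The next probe set went the other way in colon, from 72.5 in wild type to 98.5 in germ-free mice, a log2 difference of 0.44, so the probe sets of Fut8 disagree on the colonic difference. Another probe set was above the floor in wild type colon alone, at 70.5, and read 34.3 in germ-free colon and 53.2 and 38.9 in ileum (wild type, then germ-free). Across regions its brightest probe set was 1.38-fold higher in ileum in wild type and 1.99-fold higher in germ-free mice, and the next one 0.87 and 0.25 log2 higher. The one above the floor in wild type colon alone was lower in wild type ileum, a log2 difference of -0.17 with the ileal value set to the floor. With the mean of the probe sets the regional difference in germ-free mice was 0.47 log2.

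St6galnac6, which attaches sialic acid to N-acetylhexosamine residues of glycolipids and of Lewis a type chains, differed between regions more than any other member. It read 5440 in wild type and 4046 in germ-free colon, and 80.5 and 63.4 in wild type and germ-free ileum. The ileal values were at or just above the floor, and the colonic values on another scale. The fold between colon and ileum was 67.6 in wild type and 63.9 in germ-free mice, and since the germ-free ileal value nearly equals the floor the second fold is close to a lower bound. Among 12000 genes measured in the wild type comparison, St6galnac6 was number 4 by size of the ileal deficit, and it was number 4 of 11986 in germ-free mice. Germ-free values were lower than wild type by a log2 difference of -0.43 in colon and -0.35 in ileum.

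St6gal1, which places α2,6-linked sialic acid on N-glycan lactosamine, had the same regional direction at a smaller size. It read 1726 and 1337 in colon and 470 and 436 in ileum (wild type, then germ-free). Every colon value lay above every ileal value, by 3.68-fold in wild type and 3.07-fold in germ-free mice. Germ-free values were 1.29-fold lower in colon and 1.08-fold lower in ileum. The other St6gal1 probe set was under the floor on all arrays. With the mean of both probe sets the log2 difference of ileum from colon was -1.28 in wild type and -0.52 in germ-free mice, so the latter was no longer past 2-fold, against -1.88 and -1.62 by the brightest.

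St3gal4, which places α2,3-linked sialic acid on lactosamine and takes part in making sialyl Lewis x, was the ileal enzyme of the group. It read 127 in wild type and 173 in germ-free colon, against 2535 in wild type and 1090 in germ-free ileum. Both ileal arrays were far above both colon arrays, and wild type ileum was the highest. The ileal excess was 19.9-fold in wild type, number 38 by size of the ileal excess among the 12000 measured genes, and 6.30-fold in germ-free mice. In ileum St3gal4 was 2.33-fold lower on the germ-free array, a log2 difference of -1.22, where the SD between probe sets was 0.20, and only 50 of 11750 measured genes, itself included, had a change as negative. In colon it was 1.36-fold higher on the germ-free array. St3gal4 has 1 probe set here, so no other probe set of the gene checks these values.

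The ileal difference of St3gal4 stood beside other differences between the same arrays. The germ-free 5' to 3' shifts of Gapdh and Actb were larger in ileum than in colon, and the wild type regions differed too, as given above. Of 7 fibroblast and smooth muscle markers 6 were measured and 3 (Des, Tagln and Vim) were past 2-fold lower in germ-free ileum, beside 0.698% of all measured genes. Des and Tagln were under the floor there, so their folds are lower bounds. The summed intensity of the 7 markers was 5930 in wild type and 3766 in germ-free ileum, with Myh11 under the floor on both. The 4 plasma and B cell markers found summed to 12258 and 2604, with Cd79a under the floor. Igha and Jchain carried that sum, 4.21-fold and 6.83-fold lower, while Mzb1 read 239 and 186. Of the 7 epithelial markers 0 were past 2-fold, with a summed intensity of 72955 and 70028. Their part in the St3gal4 difference was not tested. In bulk captures, fewer cells of a type and less RNA per cell cannot be told apart.

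Promoter sequence of St6galnac6 and St3gal4 is shown because these genes differ most between colon and ileum, in opposite directions. RefSeq windows on GRCm38.p6 were found for 9 of the 10 members. Each line gives 250 bases before the annotated start, 5′ to 3′ on the strand of the gene, at chr2:32599459-32599708 (plus strand) and chr9:35116865-35117114 (minus strand). Capitals mark a match to TTTAT on either strand, the core bound by CDX factors of the intestine.
St6galnac6: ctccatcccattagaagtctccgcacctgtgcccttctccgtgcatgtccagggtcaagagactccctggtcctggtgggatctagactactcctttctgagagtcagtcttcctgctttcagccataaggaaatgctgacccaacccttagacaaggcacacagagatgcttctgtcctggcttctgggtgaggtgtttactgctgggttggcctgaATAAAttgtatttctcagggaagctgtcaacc
St3gal4: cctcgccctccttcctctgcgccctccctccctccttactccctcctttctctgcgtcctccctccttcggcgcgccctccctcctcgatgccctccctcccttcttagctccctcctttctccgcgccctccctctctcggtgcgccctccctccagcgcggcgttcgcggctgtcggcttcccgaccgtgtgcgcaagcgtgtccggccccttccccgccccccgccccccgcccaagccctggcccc
The St6galnac6 window held 1 TTTAT match, 2 CpG and 51.6% G and C, and the St3gal4 window 0 matches, 25 CpG and 72.8% G and C, beside a median of 6 CpG over all 32851 windows of that length. TTTAT occurred in 37.3% of all windows. Another 3 motifs were searched on both strands and were in neither window: GATAA, the core of GATA factors, was in 22.6% of all windows. The nuclear receptor half-site AGGTCA was in 14.0% and the STAT palindrome TTCNNNGAA in 7.02%. A match describes letters only, and starts other than the ones shown were not examined.

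**Figure D2:**
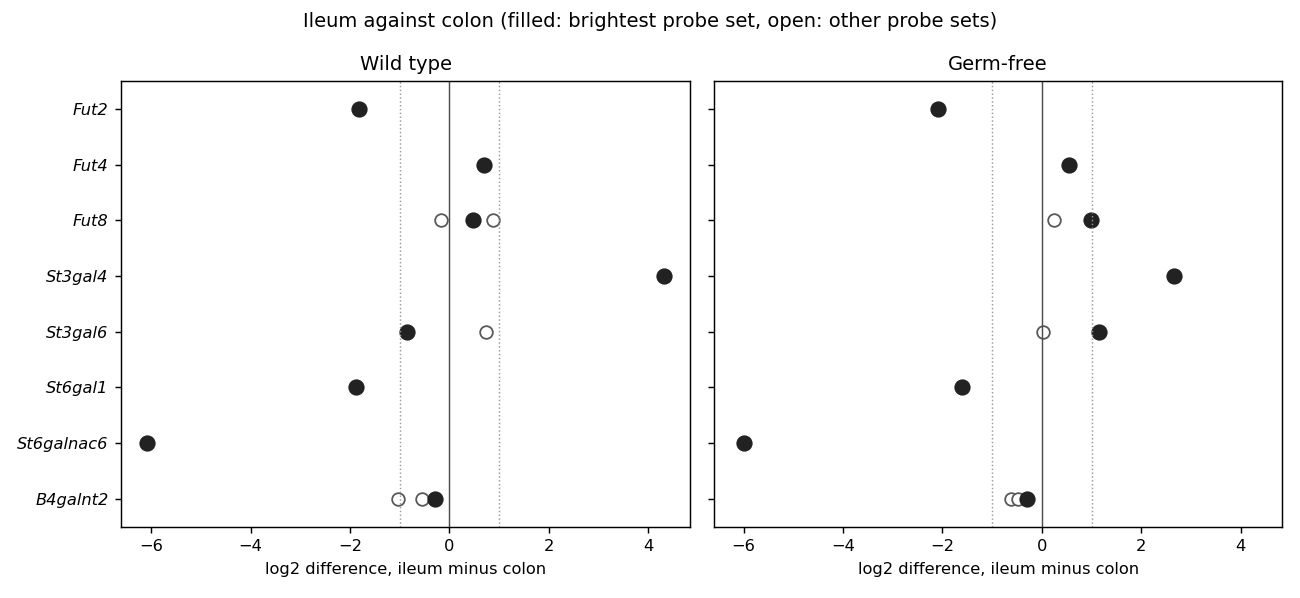
log2 difference of ileum minus colon for the 8 genes above the floor on any array, in wild type (left) and germ-free mice (right); filled points are the brightest probe set, open points other probe sets above the floor on either array, dotted lines mark 2-fold, and a floored value shows the smallest difference. St6galnac6, St6gal1 and Fut2 lie left of the dotted line and St3gal4 right of it in both panels, while the St3gal6 probe sets fall on both sides of 0 in wild type.

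St3gal6, the other α2,3-sialyltransferase of lactosamine, gave values that depended on the probe set. The brightest, 1447841_x_at, whose suffix marks probes that can match other transcripts, read 682 in wild type and 197 in germ-free colon, and 380 and 438 in wild type and germ-free ileum. By that probe set the germ-free colon array was the lowest, 3.46-fold under wild type, with only 46 of 11746 genes, itself included, having a change as negative. The next probe set, 1449078_at, read 67.7 and 70.4 in colon and 113 and 71.4 in ileum, so its colonic arrays were alike and its wild type ileal array was the highest. Its log2 difference between germ-free and wild type was 0.06 in colon and -0.66 in ileum, against -1.79 and 0.20 by the brightest. The regional difference turned too, with wild type ileum lower than colon by a log2 difference of -0.84 by the brightest and higher by 0.74 by the next. The remaining 3 probe sets of St3gal6 were under the floor on all arrays. No direction can therefore be given for the gene in colon, and the 2-fold count in colon rests on 1447841_x_at. On the same colon arrays (wild type, then germ-free) the 4 plasma and B cell markers found summed to 6314 and 858 and the 3 tuft cell markers to 475 and 230, with Cd79a and Pou2f3 under the floor. Igha and Jchain carried the first sum, 9.19-fold and 7.87-fold lower, while Mzb1 read 149 and 143. Aqp8 read 545 and 76.4. The ileal marker Fabp6 went the other way, at 767 and 6008, and the 7 epithelial markers summed to 60899 and 65716. Their part in the colonic differences was not tested.

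B4galnt2, which caps sialylated chains with N-acetylgalactosamine to make the Sd(a) antigen, was bright on every array. Its brightest probe set read 9816 and 8472 in colon (wild type, then germ-free) and 8017 and 6893 in ileum. The values were ordered from wild type colon down to germ-free ileum, with at most 1.23-fold between regions of one state. Germ-free was 1.16-fold lower than wild type in colon and 1.16-fold lower in ileum, log2 differences of -0.21 and -0.22, below the SD between probe sets in colon and just above it in ileum. Another 2 probe sets, dimmer but above the floor, had the same direction, at -0.56 and -0.70 in colon and -0.63 and -0.16 in ileum. Their regional differences were also negative, at -0.55 and -1.03 in wild type and -0.62 and -0.48 in germ-free mice. All 3 probe sets above the floor thus gave the lower value in germ-free mice and in ileum, each by less than 2-fold except 1439853_at between the wild type regions.

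B3gnt7, which extends lactosamine chains with N-acetylglucosamine, read 21.5 and 35.7 in colon (wild type, then germ-free) and 58.9 and 56.2 in ileum by its 1 probe set. All were under the floor, the ileal values narrowly. With the floor at the 25th percentile of all values, an intensity of 20.1, all 4 arrays count as above it, and the wild type ileal value was higher than the colonic one by a log2 difference of 1.45.

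Counted together, 8 of the 10 genes were measured (above the floor on 1 of the compared arrays) in each regional comparison. In wild type ileum 1 was past 2-fold upward and 3 downward, where 12.0% of all 12000 measured genes were past 2-fold, 6.04% upward and 5.93% downward. In germ-free mice the counts were 2 and 3, beside 13.2% of 11986 genes, 7.37% upward and 5.88% downward. That split over all genes turned with the scaling, from 883 upward and 705 downward to 627 and 1001 in the values as deposited and 686 and 931 with median scaling. The members' counts were 1 and 3 in the values as deposited or with median scaling, where St3gal6 was not past 2-fold. At 1.5-fold 6 members passed in each state, beside 27.4% of all genes in wild type and 30.6% in germ-free mice. Fut2 is measured in these comparisons only through the colon, where it is high, so it had to differ.

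For germ-free against wild type in colon, 8 genes were measured, of which 0 were past 2-fold upward and 1 downward, beside 4.52% of all 11746 measured genes past 2-fold, 1.29% upward and 3.23% downward. The split over all genes in colon was set by the scaling, at 152 upward and 379 downward here, 296 and 275 in the values as deposited, and 312 and 242 with median scaling. In ileum 7 were measured, with 0 higher and 1 lower, beside 0.928% of 11750 genes, 0.23% upward and 0.698% downward. At 1.5-fold 2 members passed in colon and 1 in ileum, beside 17.0% and 5.57% of all genes. At these numbers a single gene makes up the count in each region. The median log2 difference of the measured members was -0.29 in colon and -0.11 in ileum, where that of all measured genes was -0.01 and 0.03. With median scaling of the arrays the median of all genes in colon moved to 0.12, and in the values as deposited that of germ-free ileum against colon moved from 0.04 to -0.11, against which single values should be read.

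**Figure D3:**
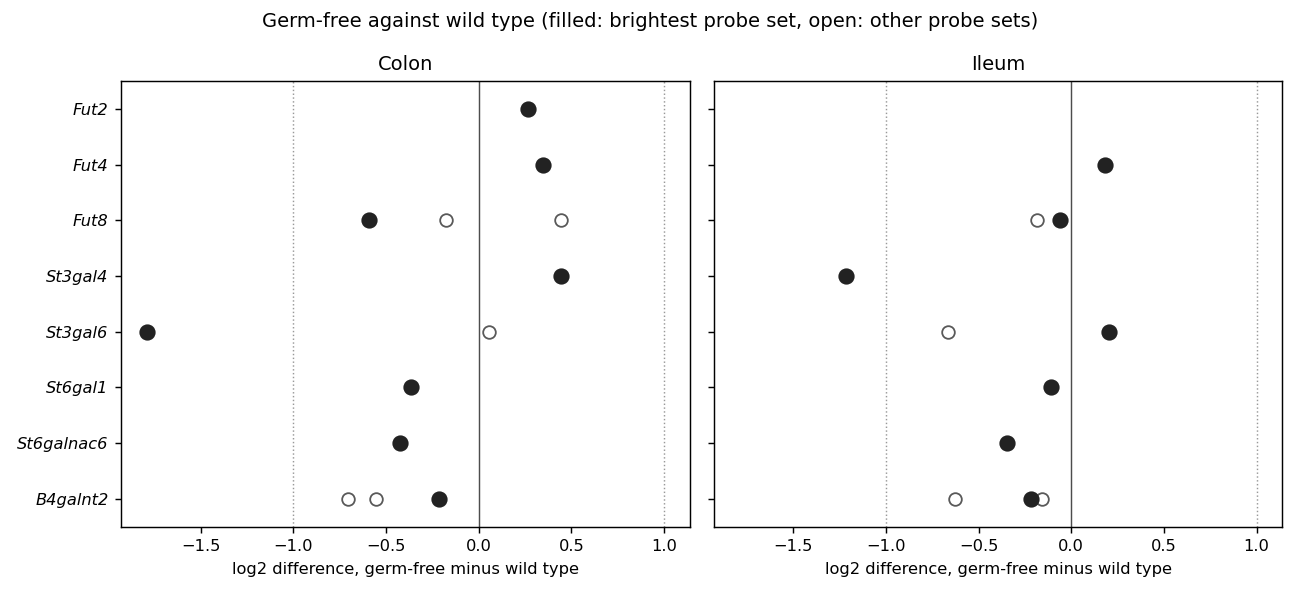
log2 difference of germ-free minus wild type for the 8 genes above the floor on any array, in colon (left) and ileum (right); filled points are the brightest probe set, open points other probe sets above the floor on either array, and dotted lines mark 2-fold. St3gal6 in colon and St3gal4 in ileum lie beyond the dotted line, the open point of St3gal6 in colon lies at 0.06, and all B4galnt2 points are below 0.

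The sugar supply and the rest of each family were read from 9 gene lists with 134 genes present, the members included. In colon 100 of them were measured, with 0 past 2-fold upward and 4 downward in germ-free mice (4.00%, beside 4.52% of all genes), and 1 higher and 3 lower in the values as deposited and with median scaling. The list genes named below are called with quantile normalization, so single calls in colon can change with the scaling. In ileum 95 were measured, with 0 higher and 3 lower (3.16%, beside 0.928%). Without the 10 members these were 3 of 92 genes in colon and 2 of 88 in ileum.

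On the fucose side 0 measured genes were past 2-fold with the germ-free state, beside 4.52% of all genes in colon and 0.928% in ileum. With so few genes measured, a count of 0 is near those shares. Fut2 was not measured in ileum. Of 9 fucosyltransferase genes 4 were measured in colon and 3 in ileum, with medians of 0.20 and 0.18. Of 11 genes of GDP-fucose supply and protein O-fucosylation all were measured, with medians of -0.15 and -0.19. Gmds, which makes the GDP-fucose precursor from GDP-mannose, read 2025 and 1472 in colon (wild type, then germ-free) and 3851 and 2898 in ileum. Both germ-free values were lower, by log2 differences of -0.46 and -0.41. Among the 12 genes found of interleukin 22 and lymphotoxin signalling, 10 were measured in colon and 1, Il18, was past 2-fold lower (760 in wild type, 276 in germ-free), while in ileum 9 were measured and 0 were past 2-fold. Il22ra1, the epithelial interleukin 22 receptor subunit, read 450 and 716 in colon and 1073 and 865 in ileum.

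On the sialic acid side the lower values in colon included the first enzyme of the pathway. Gne, which commits UDP-N-acetylglucosamine to sialic acid synthesis, read 1206 in wild type and 542 in germ-free colon, 2.22-fold lower, and 597 and 516 in ileum. Wild type colon was thus the highest and the other 3 arrays were close to each other. The log2 difference of Gne in colon, -1.15, was the smallest of the 4 lower calls there. In the values as deposited and with median scaling only 3 lower calls were counted, so the Gne call may depend on the scaling. Nans, which makes the 9-phosphate of sialic acid, was lower by a log2 difference of -0.70 in colon and -0.20 in ileum. Cmas, which activates sialic acid to its CMP form, had 0.28 and -0.14. Of the 12 genes found in that list 10 were measured in colon, with 0 higher, 1 lower and a median of -0.16. In ileum 9 were measured, with 0 past 2-fold and a median of -0.14. The shares over all measured genes were 4.52% in colon and 0.928% in ileum.

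Of 20 sialyltransferase genes 14 were measured in colon, with 0 higher, 1 lower (St3gal6) and a median of -0.34. In ileum 16 were measured, with 0 higher, 2 lower and a median of -0.10. Of all measured genes 4.52% in colon and 0.928% in ileum were past 2-fold. The ileal pair was St3gal4 and St8sia4, a polysialyltransferase of lymphoid and neural cells, which read 167 in wild type and 80.6 in germ-free ileum and 103 and 82.8 in colon. On the ileal arrays the pan-leukocyte gene Ptprc read 458 in wild type and 250 in germ-free mice, and the 4 myeloid markers summed to 2361 and 1253, with Cd68 under the floor. That sum holds Ptprc and was mostly Lyz2, at 1791 and 888, while Itgam read 82.3 and 76.6. Lyz2 was 17.7-fold higher in wild type ileum than in wild type colon, where Ptprc was 1.51-fold higher, so Lyz2 and Ptprc did not run together across regions. The 2 Paneth markers found summed to 10570 and 7967 in ileum (wild type, then germ-free). Their part in the St8sia4 difference was not tested.

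Among the 25 genes found of lactosamine chain extension and capping, B3galt5, which starts the type 1 chains that Fut2 can fucosylate, was 2.64-fold lower in germ-free colon, at 122 against 321, and under the floor in ileum. B4galt4, a galactosyltransferase of lactosamine, was 2.16-fold lower in germ-free ileum, at 137 against 298, and read 142 and 147 in colon. That list had 15 genes measured in colon (0 higher, 1 lower, median 0.10) and 13 in ileum (0 higher, 1 lower, median 0.04). Beside these, 4.52% and 0.928% of all measured genes were past 2-fold. None of the 17 measured genes of mucin-type O-glycan initiation and branching, the 7 sulfotransferases or the 12 glycoprotein carriers was past 2-fold in colon, and none of 16, 6 and 12 in ileum. Gcnt2, which branches lactosamine chains, came closest in colon, at 622 in germ-free against 320 in wild type (1.94-fold). That is near enough to 2-fold for the call to depend on the scaling.

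**Figure D4:**
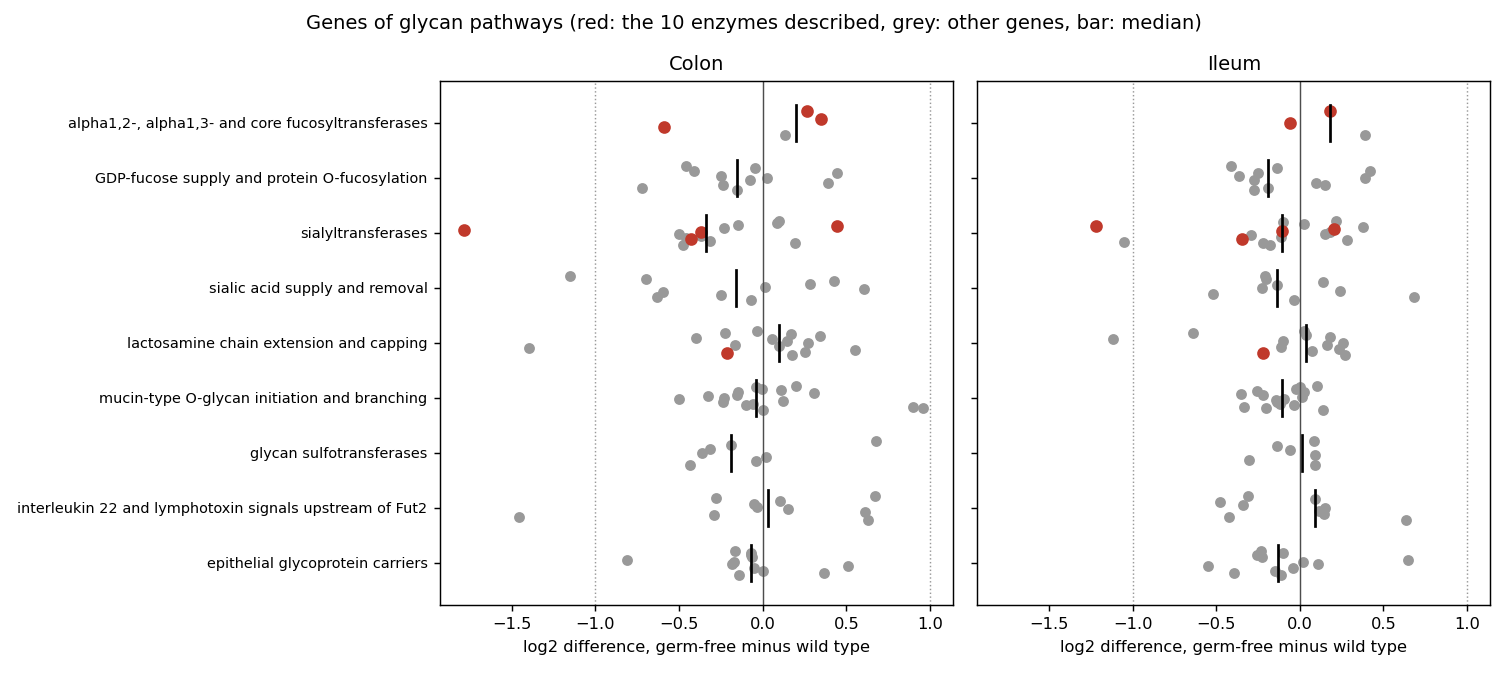
log2 difference of germ-free minus wild type for each measured gene of 9 glycan lists, in colon (left) and ileum (right); red points are the enzymes described above, grey points other genes, black bars list medians and dotted lines 2-fold. Most points lie between the dotted lines, and beyond them on the left are St3gal6, B3galt5, Il18 and Gne in colon and St3gal4, B4galt4 and St8sia4 in ileum.

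The genes most like the 3 members of widest range were named by the smallest Euclidean distance between floored log2 values centred over the 4 arrays, among 7429 genes bright on at least 1 array. For St3gal4 the nearest was Ada, adenosine deaminase, at a distance of 0.18, which read 113 and 138 in colon and 2291 and 857 in ileum (wild type, then germ-free). Next came Lap3, a leucine aminopeptidase, at 0.61 and Mical1 at 0.69. Ada shared the low colonic pair, the high wild type ileal value and the lower germ-free ileal value. For St6galnac6 they were Sptssb, a serine palmitoyltransferase subunit (0.48), the transcription factor gene Foxd2 (0.59) and the carbonic anhydrase gene Car2 (0.74). All of them were under the floor on both ileal arrays, so their ileal likeness is set by the floor. In colon Sptssb and Car2 were lower on the germ-free array, like St6galnac6, while Foxd2 was higher, at 5176 against 4229. For Fut2, whose ileal values were floored, they were the steroid dehydrogenase gene Hsd3b3 (0.16), Smim38 (0.18) and Sema3c (0.18). With 4 arrays such likeness is a description.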

How the data were processed

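RNA was measured on short-oligonucleotide arrays, 1 per group. Per the series' design text, the authors made the deposited probe set intensities (linear scale) with dCHIP2004, and which options were chosen is not given in the sources used here. There are 45101 probe sets. Without the 64 controls, log2 values were quantile-normalized (Python 3.11.15, numpy 2.4.6, pandas 2.3.3). Values under the pooled median (62.4) were set to it, and a gene was measured in a comparison if either array was above it. The platform annotation gave 34945 probe sets 1 symbol, 932 several and 9160 none. The brightest probe set by mean log2 stood for a gene. Differences of log2 values were counted from 2-fold, with no test. The members and gene lists were chosen with earlier results of these data known. All members were described, list genes were named when past 2-fold with the germ-free state (up to 4 per list) or for their role, and like genes by distance. Alternatives were other scalings, floors, probe set choices and 1.5-fold. The steps were tested on simulated data. The number of arrays limits the precision.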

Additional observations from a re-analysis of the deposited data

Results flagged for a closer look

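For a pair of the enzymes the germ-free array differed from wild type in opposite directions in the 2 regions, each time by more than the SD between probe sets of a gene. For St3gal6 in ileum the excess was slight, 0.205 against an SD of 0.201. That SD comes from brighter signals than those of St3gal4 in colon or of St3gal6 in germ-free colon. The difference between the regions was not tested, since each region has 1 array per state. St3gal4 was higher on the germ-free array in colon (log2 0.44) and lower in ileum (-1.22), so the colonic change exceeded the ileal one by 1.66. St3gal6 was lower in colon (-1.79) and higher in ileum (0.20) by its brightest probe set, a colonic change minus ileal change of -1.99. By the next probe set of St3gal6 the values were 0.06 and -0.66.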

How the results depend on the processing

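No paired analysis was possible because each group is 1 array. Without probe sets ending in _s_at or _x_at, the colonic St3gal6 difference between germ-free and wild type reversed to 0.0552 log2, since the brightest probe set is then left out. Of 207 values of member differences under the alternatives, 5 had the other sign than the main value (3 of St3gal6 without those probe sets and 2 of Fut4 with the mean of the probe sets), none of them under another scaling. Of 72 alternative values of differences past 2-fold, 7 were not past it (5 of them St3gal6, and the germ-free regional differences of Fut2 with the floor at the 75th percentile and of St6gal1 with the mean of the probe sets), and 10 values were not available because both arrays were under the floor. The count of members past 2-fold with the germ-free state in colon was 0 with the mean of the probe sets and 0 without the _s_at and _x_at ones, and 2 at 1.5-fold. Between germ-free regions it was 3 with the floor at the 75th percentile and 2 with the mean of the probe sets, against 5. Pathway genes past 2-fold in colon numbered 9 with the floor at the 25th percentile, 18 with no floor and 17 at 1.5-fold, against 4. In ileum they numbered 1 with the floor at the 75th percentile, 12 with no floor and 7 at 1.5-fold, against 3. The St3gal4 difference in ileum was -1.31 log2 in the values as deposited and -1.29 with median scaling, against -1.22. The other floors and probe set choices could not move it. St3gal4 has 1 probe set, and both ileal values were above every floor used. Without a floor Fut2 was lower in ileum by log2 differences of -2.97 in wild type and -3.27 in germ-free mice.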

Other observations

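Other glycan genes also differed between the regions; those named here were chosen after their values were seen. Without the 10 members, 7 of 90 measured pathway genes were past 2-fold upward and 9 downward in wild type ileum against colon (17.8%, beside 12.0% of all genes), and 6 and 11 of 95 in germ-free mice (17.9%, beside 13.2%). Cmah, which converts CMP-N-acetylneuraminic acid to its hydroxylated form, read 438 and 289 in colon (wild type, then germ-free) and was under the floor in ileum, at least 7.01-fold lower in wild type. The CMP-sialic acid transporter gene Slc35a1 was 2.84-fold lower in wild type ileum and 3.35-fold in germ-free ileum. B3gnt2, which extends lactosamine chains, was 3.60-fold and 3.44-fold lower, and the core branching enzyme gene Gcnt3 3.32-fold and 3.01-fold lower. The transmembrane mucin gene Muc4 read 1176 and 1120 in colon and 230 and 192 in ileum. Higher in ileum were the galactosyltransferase gene B4galt6, by 2.49-fold and 2.46-fold, and Slc35c2, a transporter family gene linked to protein O-fucosylation, by log2 differences of 1.22 and 1.58.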
